A study of Mus musculus with 100 samples.

Results

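Matrix metalloproteinases (MMPs) were followed in knee joints of 3 mouse strains before and after injury of the joint. The members were 10 genes of the family taken by name, Mmp2, Mmp3, Mmp8, Mmp9, Mmp11, Mmp12, Mmp13, Mmp14, Mmp19 and Mmp23, and all 10 were found among the 17310 genes of the RNA-seq count table. No filter removed a member, and the lowest count of any member in any of the 100 libraries was 1, for Mmp12. The strains were MRL/MpJ, labelled not susceptible to post-traumatic osteoarthritis (PTOA), C57BL/6 (the substrain C57BL/6J in the study's methods), labelled moderately susceptible, and STR/ort, labelled highly susceptible. The labels give an age of 10 weeks for every mouse, and the right knee was injured with a compressive load of 10 to 12 N. Joints were collected before injury (0-day). After injury the injured knee and the uninjured contralateral knee were taken at time points called 1-day, 1-week and, in a later batch, 2-weeks. Each strain thus gave 7 groups, and each of the 21 groups held 4 or 5 libraries. The controls after 0-day were contralateral knees of injured mice and not knees of sham-injured mice.

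MMPs are zinc-dependent proteases that are made as inactive precursors and cut collagens, proteoglycans and other proteins of the extracellular matrix once their propeptide is removed. In joints they are made by chondrocytes, synovial fibroblasts, bone cells and myeloid cells, and their activity is held down by the tissue inhibitors of metalloproteinases (TIMPs). Loss of aggrecan and of type II collagen from articular cartilage is a hallmark of osteoarthritis, and collagenases and stromelysins are the members of the family best known for it.

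Total counts ranged from 6182016 to 20986027 per library. In the labels, batch 1 (70 libraries) spans 0-day to 1-week and batch 2 (30 libraries) is 2-weeks, so that time and batch cannot be told apart between 2-weeks and earlier time points. Levels are given as CPM, the count of a gene scaled to library size. The joints were whole and held bone, marrow and muscle, and all markers listed for 7 tissues or cell types were measured. Their summed levels ranged over the libraries from 11969.6 to 94689 CPM for 6 skeletal muscle genes, from 9063 to 21716 CPM for 12 marrow neutrophil genes, from 1093 to 6797 CPM for 6 chondrocyte genes and from 1218 to 23369.8 CPM for 6 fibroblast genes. Fewer cells of a type and less RNA per cell cannot be told apart in such samples.

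Some libraries stood apart from their groups. Replicate 3 of the injured MRL/MpJ joints at 2-weeks was low in Mmp2, Mmp3, Mmp14 and Mmp19, and its fibroblast marker sum was 1683 CPM, the lowest of its group. Replicate 4 of the same group was low in Mmp8, Mmp9 and Mmp13, and had the highest muscle marker sum of all libraries, 94689 CPM. Replicate 4 of the contralateral STR/ort joints at 2-weeks was high in Mmp3 and Mmp19, with a fibroblast marker sum of 3840 CPM against a group median of 2450 CPM. Replicate 3 of the contralateral STR/ort joints at 1-week was low in Mmp3 and Mmp19, with a fibroblast marker sum of 8984 CPM against a median of 13724 CPM. Where leaving out one of these libraries made or ended a call, or moved a called value by over 1.5 times in fold, both values are given.

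Of the 10 genes, 4 lie in 1 cluster on chromosome 9 (GRCm38). Along it come Mmp13 at 7272514 to 7283333, Mmp12 at 7344397 to 7360461, Mmp3 at 7445822 to 7455975 and Mmp8 at 7558429 to 7568486. Mmp2 lies on chromosome 8, Mmp9 on chromosome 2, Mmp14 on chromosome 14, Mmp23 on chromosome 4, and Mmp11 and Mmp19 on chromosome 10. Promoters of MMP genes that respond to cytokines and to injury typically hold a binding sequence of AP-1, the factor made of Fos and Jun proteins. RefSeq promoter sequences of GRCm38.p6 were found for 7 of the 10 members, with 9 start sites in all. The 250 bases before each start were searched on both strands for 3 motifs. The AP-1 motif, TGANTCA, was in the same window of 6.75% of 32851 mouse promoters. The TATA box, TATAAA, was in 12.4% of them, and the GC box, GGGCGG, in 32.7%. The 100 bases before the start are printed for 4 members of the chromosome 9 cluster, where motifs differ between neighbours, and for Mmp14, one of the genes that rose with injury, with AP-1 and TATA box matches in capitals.
Mmp3, chr9:7445722-7445821, plus strand: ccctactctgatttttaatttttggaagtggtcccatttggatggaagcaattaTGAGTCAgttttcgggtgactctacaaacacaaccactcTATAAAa
Mmp13, chr9:7272414-7272513, plus strand: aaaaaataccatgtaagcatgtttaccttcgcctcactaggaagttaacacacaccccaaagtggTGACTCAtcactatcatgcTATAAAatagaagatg
Mmp12, second start, chr9:7347274-7347373, plus strand: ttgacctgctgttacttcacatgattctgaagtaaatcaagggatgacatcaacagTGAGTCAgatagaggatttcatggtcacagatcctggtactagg
Mmp8, chr9:7558329-7558428, plus strand: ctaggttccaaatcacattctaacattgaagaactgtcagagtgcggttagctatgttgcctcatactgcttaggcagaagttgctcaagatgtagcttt
Mmp14, chr14:54431498-54431597, plus strand: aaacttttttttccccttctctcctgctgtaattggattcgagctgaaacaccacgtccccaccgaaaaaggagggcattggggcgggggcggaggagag
The AP-1 match began 46 bases before the start in Mmp3, 44 before the second start of Mmp12 and 35 before that of Mmp13. The first start of Mmp12 held none of the 3 motifs. Mmp3 and Mmp13 also held a TATA box match, which began 7 and 16 bases before the start. Mmp8 held none of these motifs in the window, while Mmp14 and Mmp11 each held 2 GC box matches and neither of the others. These matches are a description of the letters and not of binding.

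Compared per length of all annotated exons of a gene merged, which can exceed that of a single transcript, the 10 genes covered a wide range of levels before injury. Mmp8 (neutrophil collagenase), Mmp13 (collagenase-3 of cartilage and bone) and Mmp9 (gelatinase B of neutrophils and osteoclasts) were the highest. At 0-day Mmp8 stood at 191 ± 15.3 CPM per kilobase (kb) in MRL/MpJ, 217 ± 31.5 in C57BL/6 and 146 ± 0.997 in STR/ort (SD, n = 4 each). Mmp13 stood at 162 ± 22.1, 213 ± 31.9 and 201 ± 36.8 CPM per kb, and Mmp9 at 164 ± 11.4, 197 ± 22.7 and 104 ± 11.6 CPM per kb in the same order of strains. These 3 genes made up 85.1% ± 0.440 of the summed level per kb of the 10 genes in MRL/MpJ, 76.1% ± 3.61 in C57BL/6 and 73.8% ± 2.53 in STR/ort.

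Mmp2 (gelatinase A) and Mmp14 (MT1-MMP, the membrane-bound collagenase that activates the precursor of MMP2) followed, with 46.6 ± 1.24 and 33.4 ± 3.56 CPM per kb in MRL/MpJ, 116 ± 17.4 and 59.9 ± 8.08 in C57BL/6 and 85.8 ± 9.90 and 52.4 ± 8.5 in STR/ort. Mmp23 (a small membrane-anchored member) lay between 5.79 and 10.3 CPM per kb in the strain means. Mmp3 (stromelysin-1, which cuts aggrecan and activates other MMP precursors) lay between 1.45 and 8.54, and Mmp19 (a member that cuts basement membrane proteins) between 1.84 and 4.21. Mmp11 (stromelysin-3) at 1.09 to 1.45 and Mmp12 (macrophage elastase) at 0.165 to 0.539 CPM per kb were the lowest.

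**Figure D1:**
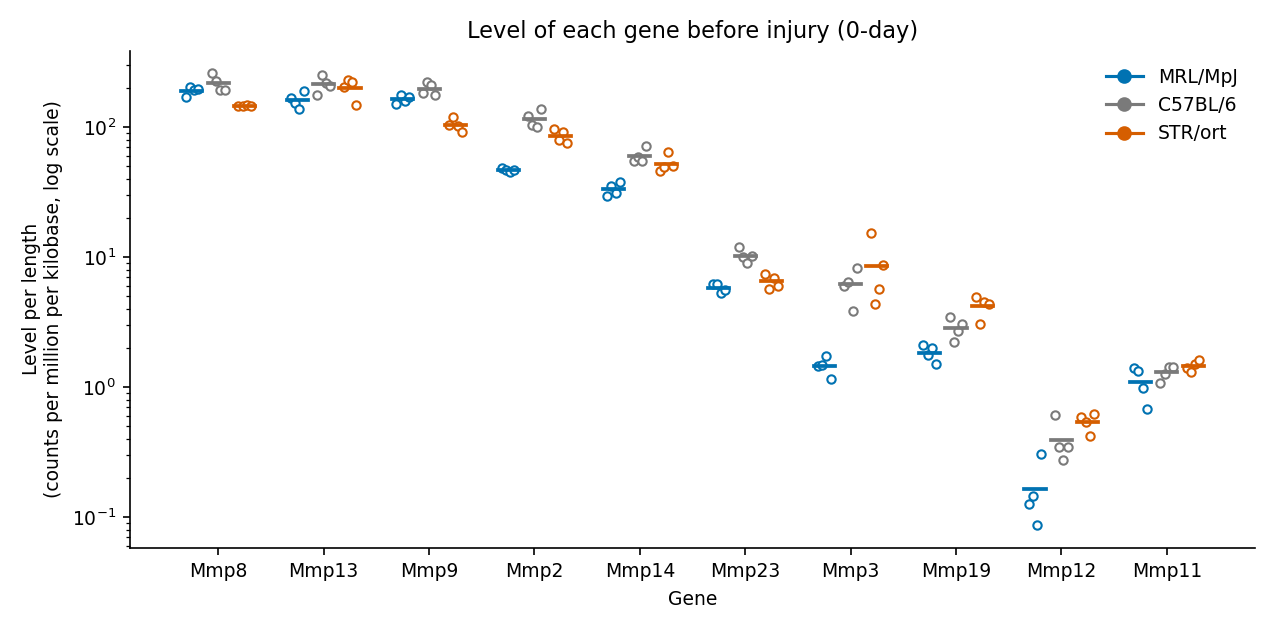
Level per merged exon length of each of the 10 genes at 0-day (CPM per kb, log axis), with 1 point per library, a bar at the mean and n = 4 per strain. Mmp8, Mmp13 and Mmp9 lie above 100 in all 3 strain means, and Mmp12 lies below 1.

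The 0-day joints addressed the question of how the strains differ before any injury. Of the 10 genes, 6 were called between STR/ort and MRL/MpJ, 3 between STR/ort and C57BL/6, and 6 between C57BL/6 and MRL/MpJ. A call means an adjusted p under 0.05 and a fold change over 1.5 in the edgeR quasi-likelihood test with Benjamini-Hochberg adjustment over all genes. Of all 17310 genes, 14.8%, 13.8% and 15.9% were called in these comparisons. The median log2 difference of the 10 genes was 0.50, -0.18 and 0.76, against 0.01, -0.06 and 0.01 over all genes.

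Mmp3 was measured at 2.60, 2.67, 3.10 and 2.07 CPM in the MRL/MpJ libraries, at 10.9, 11.7, 6.94 and 14.9 CPM in C57BL/6 and at 27.8, 7.82, 10.2 and 15.7 CPM in STR/ort. Every MRL/MpJ library lay below all others, while the ranges of C57BL/6 and STR/ort overlapped. The log2 difference was 2.57 ± 0.37 (SE) between STR/ort and MRL/MpJ (adjusted p = 3.1e-05) and 2.12 ± 0.37 between C57BL/6 and MRL/MpJ. Mmp12 differed by 1.74 and Mmp19 by 1.19 on the log2 scale between STR/ort and MRL/MpJ, and Mmp2 by 0.88 and Mmp14 by 0.66. The fibroblast marker sum was 2078 to 2599.5 CPM in MRL/MpJ, 3604 to 5569 CPM in C57BL/6 and 4583 to 8512 CPM in STR/ort, so that MRL/MpJ lay below both other strains without overlap. The muscle marker sum was lower in C57BL/6 (27848 to 45464 CPM) than in MRL/MpJ (61651 to 74389.7 CPM) and STR/ort (65135 to 72913 CPM). The part of these sums in the differences was not tested. The genes best known from neutrophils were lower in STR/ort. Mmp9 was lower in STR/ort than in MRL/MpJ by -0.65 and than in C57BL/6 by -0.96, and Mmp8 was lower than in C57BL/6 by -0.61, a call lost with RLE size factors or DESeq2 (-0.57 with each). Mmp8 stood at 351 to 356 CPM in the STR/ort libraries and at 465 to 627 CPM in C57BL/6, without overlap. The sum of the 12 marrow neutrophil markers had medians of 14178 CPM in STR/ort, 16822.5 in C57BL/6 and 18804.5 in MRL/MpJ. Its range in STR/ort (13365 to 15917 CPM) overlapped that of C57BL/6 (15237.5 to 18628 CPM) and lay below that of MRL/MpJ (16516 to 19673 CPM). The sum of 6 osteoclast markers was 551 to 764 CPM in STR/ort, overlapping C57BL/6 (750 to 1038 CPM) and MRL/MpJ (680 to 854 CPM). The part of these sums in the differences was not tested.

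With 2 factors of unwanted variation removed by RUVg, 7 of the 15 calls at 0-day were left, and none of those between C57BL/6 and MRL/MpJ. These 6 calls were lost on the adjusted p and, for Mmp14 alone, also on the fold. The log2 values were 1.81 for Mmp3, 2.42 for Mmp12 (1.34 without the factors), 0.92 for Mmp19 (0.66), 0.93 for Mmp23 (0.85) and 0.92 for Mmp2 (1.35), while that of Mmp14 went from 0.89 to 0.20. Calls near the fold threshold were lost with 1 library left out for Mmp14 between STR/ort and MRL/MpJ (log2 difference 0.54 without STR/ort replicate 3), for Mmp8 between STR/ort and C57BL/6 (-0.52 without C57BL/6 replicate 1) and for Mmp19 between C57BL/6 and MRL/MpJ (0.56 without the same library).

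Injured joints were compared with contralateral joints of the same strain and time to ask which genes changed with injury. At 1-day 2 of the 10 genes were called in MRL/MpJ, 4 in C57BL/6 and 2 in STR/ort, where 2.02%, 5.6% and 4.31% of all genes were called. At 1-week 5, 5 and 7 were called, against 3.13%, 5.82% and 9.21% of all genes, and at 2-weeks 3, 6 and 6, against 1.16%, 2.95% and 4.66%. Of these 40 calls, 39 were higher in the injured joint. The median log2 change of the 10 genes was 0.21, 0.46 and 0.00 at 1-day, 0.76, 1.12 and 0.86 at 1-week and 0.48, 0.72 and 1.05 at 2-weeks, in the order MRL/MpJ, C57BL/6 and STR/ort. Over all genes the same medians lay between -0.03 and 0.01.

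Mmp3, the stromelysin, was called in 8 of the 9 comparisons and had risen by 1-day in every strain. At 1-day it was measured at 4.30, 3.79, 1.06, 3.96 and 2.95 CPM in contralateral and 15.3, 24.0, 13.1, 15.4 and 16.6 CPM in injured MRL/MpJ joints. C57BL/6 joints gave 7.86, 6.35, 6.32, 7.02 and 9.17 CPM against 39.5, 17.8, 21.1, 41.8 and 33.1 CPM. STR/ort joints gave 15.1, 37.0, 14, 20.7 and 17.0 CPM against 103, 89.9, 72, 75.5 and 88.3 CPM. No injured library overlapped the contralateral libraries of its strain, and contralateral STR/ort joints lay near the level of injured MRL/MpJ joints. The fibroblast marker sum at 1-day was 3478 to 5527 CPM in injured and 2554 to 3415 CPM in contralateral MRL/MpJ joints, and 4938 to 6975 CPM against 3602 to 4528 CPM in C57BL/6, both without overlap. In STR/ort it was 7676 to 13525 CPM against 9423 to 13452 CPM, and the part of these sums in the Mmp3 levels was not tested. The log2 change was 2.41 ± 0.30 in MRL/MpJ, 2.08 ± 0.25 in C57BL/6 and 2.04 ± 0.22 in STR/ort.

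At 1-week the level in injured joints was 21.5, 20.5, 23.1, 16.6 and 17.2 CPM in MRL/MpJ and 19.0, 19.5, 17.5, 26.5 and 20.9 CPM in C57BL/6, against at most 3.57 and 5.60 CPM in contralateral joints. In STR/ort the injured joints stood at 81.5, 107, 108, 67.8 and 103 CPM and the contralateral joints at 91.8, 84.1, 25.7 and 56.7 CPM. Both joints were thus high in this strain and their ranges overlapped. The log2 change of Mmp3 was 2.90 ± 0.32 in MRL/MpJ, 2.35 ± 0.27 in C57BL/6 and 0.54 ± 0.21 in STR/ort (edgeR adjusted p = 0.0696), and the STR/ort value turned on single libraries. Without the third contralateral library it was 0.27 (adjusted p = 0.311). It was called without contralateral replicate 1 (0.77, adjusted p = 0.0133) or 2 (0.69, adjusted p = 0.034), without injured replicate 4 (0.64, adjusted p = 0.0332) and with 1 RUVg factor (0.63, adjusted p = 0.0269). At 2-weeks Mmp3 was called in all strains, with log2 changes of 2.41 ± 0.47, 2.11 ± 0.46 and 2.56 ± 0.37. Without contralateral replicate 4 the STR/ort change was 3.43, and without injured replicate 3 that of MRL/MpJ was 2.64. Injured STR/ort joints held 44.2, 41.2, 36.2, 66.7 and 107 CPM, and contralateral ones 5.99, 7.99, 4.91, 26.5 and 3.16 CPM. The fibroblast marker sum at 2-weeks was also higher in injured joints without overlap in each strain, at 1683 to 2773 CPM against 1281 to 1448 CPM in MRL/MpJ, 2269 to 3175 against 1218 to 1403 in C57BL/6 and 3984 to 5433 against 2273 to 3839.9 in STR/ort. The chondrocyte marker sum at 2-weeks was 4044 to 6030 CPM in injured and 2415 to 3684 CPM in contralateral STR/ort joints, without overlap. It overlapped in the other strains. The part of these sums in the changes at 2-weeks was not tested.

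**Figure D2:**
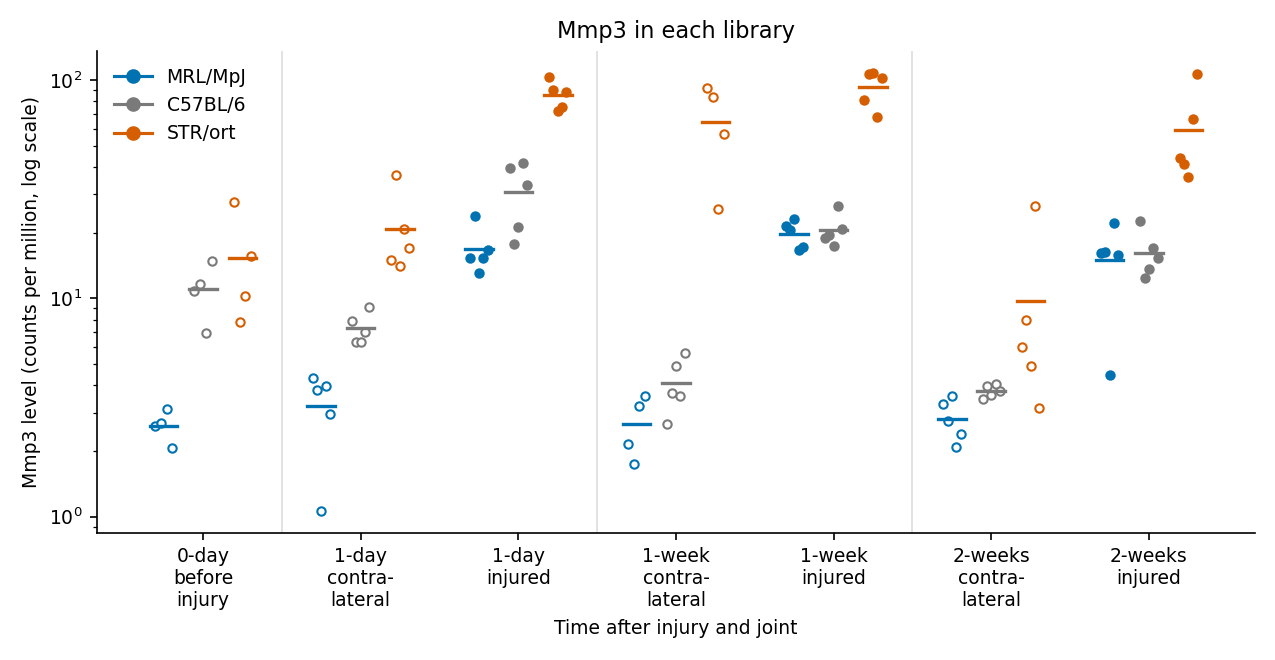
Mmp3 in every library (CPM, log axis), by strain and time, with filled points for injured joints and open points for contralateral joints and joints before injury. At 1-week the STR/ort contralateral joints lie between 25.7 and 91.8 CPM, while contralateral joints of the other strains lie at or below 5.60 CPM.

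Mmp19 was the only one of the 10 genes called in all 9 injury comparisons. Its log2 change was 1.23, 1.39 and 0.95 at 1-day, 1.42, 1.12 and 0.92 at 1-week and 0.72, 1.02 and 1.70 at 2-weeks, in the same order of strains. In STR/ort at 1-week the injured joints gave 74.8, 80.4, 61.9, 59.9 and 54.2 CPM and the contralateral joints 51.8, 33.0, 18.6 and 37.2 CPM, without overlap.

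Mmp2 and Mmp14, which act together on collagen and gelatin, were called in no strain at 1-day and in all 3 at 1-week. The log2 change of Mmp2 was 0.14 ± 0.11 in MRL/MpJ, 0.43 ± 0.11 in C57BL/6 and -0.36 ± 0.11 in STR/ort, where the last had an adjusted p of 0.028 by edgeR but lay under the fold threshold. That of Mmp14 was 0.24 ± 0.09, 0.49 ± 0.09 and -0.04 ± 0.09. In C57BL/6 both genes were already higher in injured joints at 1-day without overlap, though under the fold threshold, with Mmp2 at 298 to 415 CPM against 228 to 293 CPM (edgeR adjusted p = 0.00408) and Mmp14 at 219.5 to 318 CPM against 169 to 196 CPM (adjusted p = 0.000275). At 1-week Mmp2 stood at 328, 345, 384, 340 and 319 CPM in injured and 137, 108, 132 and 174 CPM in contralateral MRL/MpJ joints. C57BL/6 joints gave 572, 537, 480, 565 and 747 CPM against 160, 165, 209, 201 and 193 CPM. STR/ort joints gave 1432.5, 1302, 1196, 982 and 1147 CPM against 566, 608, 326 and 503 CPM. Injured and contralateral joints did not overlap in any strain, and contralateral STR/ort joints reached the level of injured joints of the other strains. The fibroblast marker sum at 1-week was 4537 to 5299 CPM in injured and 2322 to 2574 CPM in contralateral MRL/MpJ joints, and 4593 to 5333 CPM against 2039 to 2653 CPM in C57BL/6, both without overlap. In STR/ort it was 12061 to 15890 CPM against 8984 to 23369.8 CPM, and the part of these sums in the changes was not tested. The log2 changes were 1.35 ± 0.15, 1.67 ± 0.14 and 1.27 ± 0.15 at 1-week and 1.01, 1.17 and 1.44 at 2-weeks.

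Mmp14 gave 1049, 807, 941, 699 and 772 CPM in injured STR/ort joints at 1-week and 340, 305, 248 and 287 CPM in contralateral ones. The injured joints held 221 to 274 CPM in MRL/MpJ and 348 to 524 CPM in C57BL/6. Its log2 change at 1-week was 0.93 ± 0.13 in MRL/MpJ, 1.26 ± 0.12 in C57BL/6 and 1.53 ± 0.13 in STR/ort. At 2-weeks it was 0.48, 0.65 and 1.09, of which the first lay under the fold threshold.

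Mmp23 was not called at 1-day in MRL/MpJ or STR/ort, but was in C57BL/6. Its C57BL/6 levels were 22.1, 16.6, 20.6, 24.3 and 18.5 CPM in injured and 12.9, 11.5, 9.65, 11.1 and 11.9 CPM in contralateral joints, a log2 change of 0.85 ± 0.12. The fibroblast marker sums given above for 1-day were apart between injured and contralateral joints in C57BL/6 and also in MRL/MpJ, where Mmp23 was not called. They overlapped in STR/ort, and the part of these sums in the Mmp23 levels was not tested. In STR/ort the change was 0.05 at 1-day and 1.45 ± 0.17 at 1-week, when injured joints gave 51.8, 50.5, 37.8, 30.5 and 35.4 CPM. The MRL/MpJ call at 1-week (0.75, edgeR adjusted p = 0.0138) was lost with 3 of its 9 libraries left out in turn: 0.66 without injured replicate 3, 0.64 without contralateral replicate 2 and 0.72 without contralateral replicate 3.

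**Figure D3:**
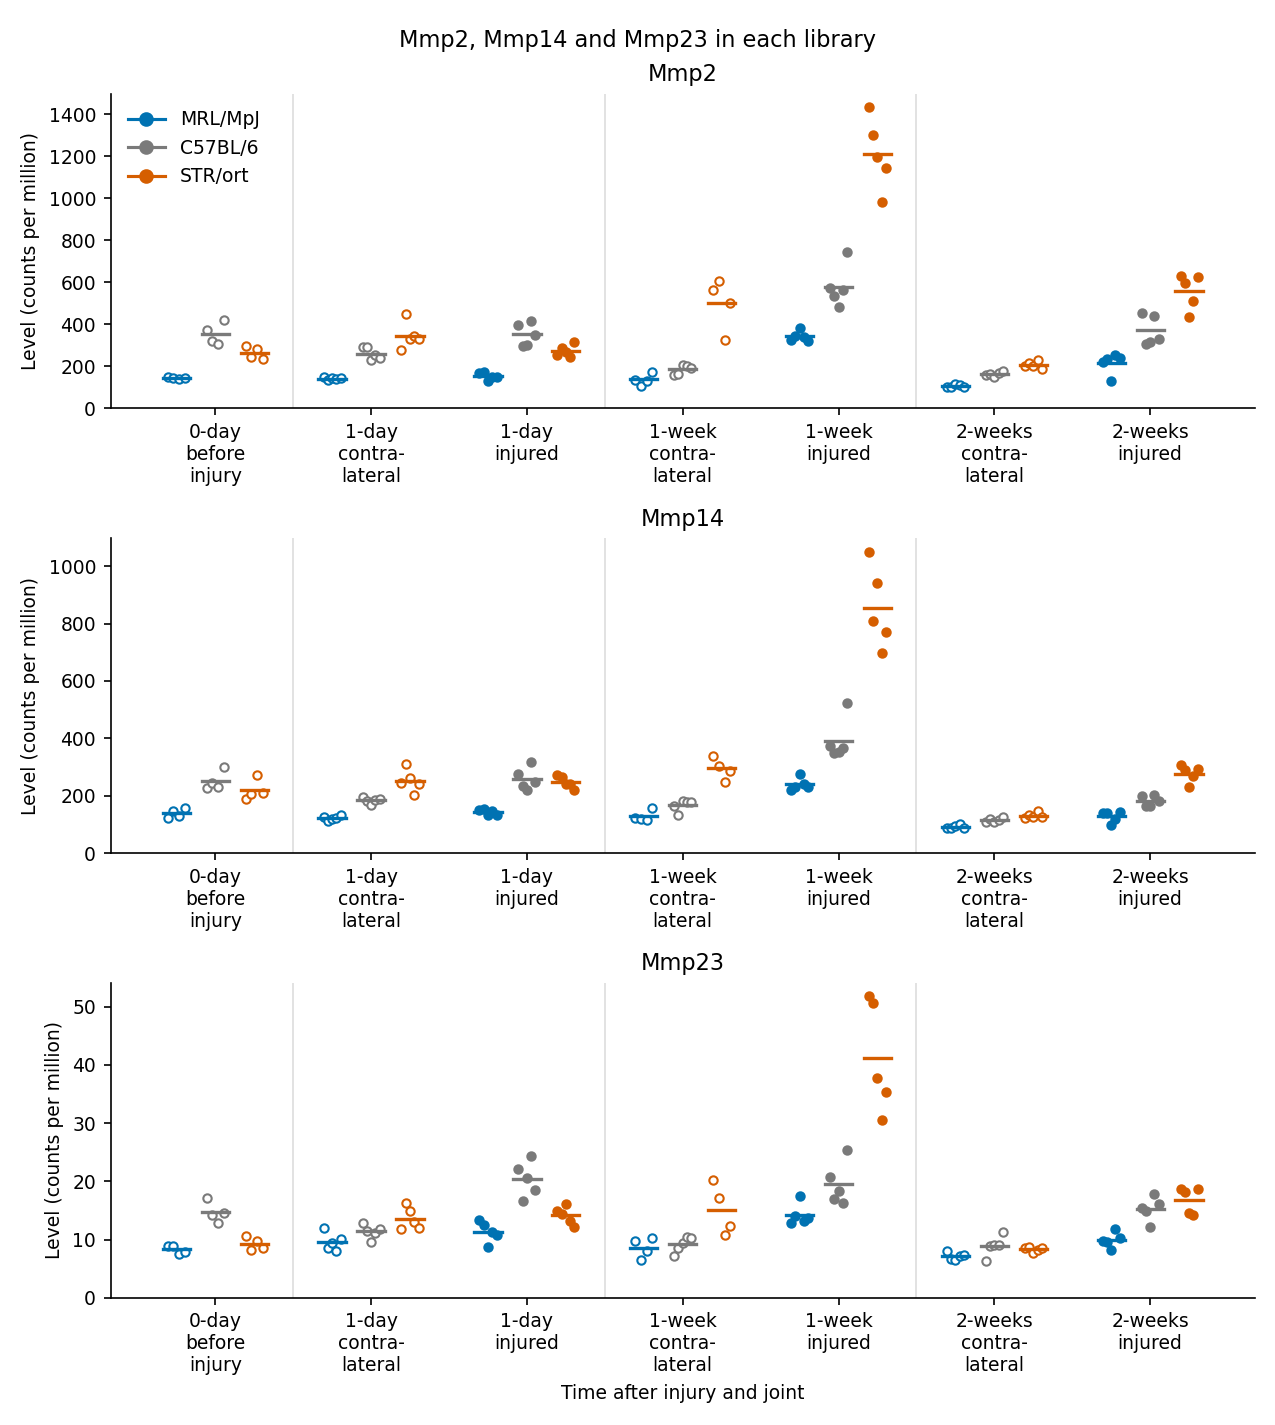
Mmp2, Mmp14 and Mmp23 in every library (CPM, linear axis), by strain and time, with filled points for injured joints and open points for contralateral joints and joints before injury. The 5 injured STR/ort libraries at 1-week lie above all other libraries for each of the 3 genes.

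Mmp12, the macrophage elastase, was low throughout. In C57BL/6 at 1-day it was measured at 2.33, 4.21, 6.57, 2.25 and 3.35 CPM in injured and at 1.57, 0.552, 1.8, 1.30 and 0.679 CPM in contralateral joints, without overlap. The log2 change was 1.61 ± 0.31, against 0.29 ± 0.44 in MRL/MpJ and 0.11 ± 0.30 in STR/ort. The summed level of 6 macrophage markers in C57BL/6 had a median of 790 CPM in the injured and 556 CPM in the contralateral joints, without overlap (712 to 852 CPM and 529 to 600 CPM), and its part in the difference was not tested. In C57BL/6 at 1-week its log2 change was 1.25 ± 0.44 (edgeR adjusted p = 0.0645), and it was called there with DESeq2 (adjusted p = 0.031), with 1 or 2 RUVg factors (adjusted p = 0.0364 and 0.0327), with housekeeping scaling (adjusted p = 0.0483) and without C57BL/6 injured replicate 3 (1.38) or 5 (1.43). Mmp12 was also called in STR/ort at 1-week (1.45) and 2-weeks (1.26), and in C57BL/6 at 2-weeks (1.5 ± 0.42). In each of these comparisons the macrophage marker sums of injured and contralateral joints overlapped. Their medians in injured and contralateral joints were 523 and 522 CPM, 397 and 363 CPM, and 392 and 428 CPM in the same order. The part of these sums was not tested either. The C57BL/6 call at 2-weeks was lost without injured replicate 3 (1.38) or contralateral replicates 3 (1.41) or 4 (edgeR adjusted p = 0.0627). With the animal as a block, Mmp12 was called in MRL/MpJ at 2-weeks (1.39, edgeR adjusted p = 0.0395), where it was not called without the block (1.37, adjusted p = 0.0745), and it was called there with DESeq2, filterByExpr and 2 RUVg factors too.

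The collagenases and gelatinase B with marrow or bone as a known source were not called higher in any injured joint. Mmp8 was called once, lower in injured STR/ort joints at 1-week (-0.64 ± 0.10), at 241, 308, 351, 354 and 283 CPM against 431, 426, 578 and 477 CPM. That call was lost without injured replicate 1 (-0.56) or contralateral replicate 3 (-0.53). In the same joints the sum of the 12 marrow neutrophil markers was 9063 to 12817 CPM in injured and 14869 to 19770 CPM in contralateral libraries, and its part in the difference was not tested. Mmp9 and Mmp13 were called in none of the 9 comparisons by edgeR. The log2 change of Mmp9 had an adjusted p under 0.05 in C57BL/6 at 1-day (-0.42) and STR/ort at 1-week (-0.40) but lay under the fold threshold, and that of Mmp13 lay between -0.30 and 0.33. Mmp11 was called once, in STR/ort at 1-week (0.81 ± 0.17). At 1-week its change in C57BL/6 (0.53 ± 0.17) was called with housekeeping scaling (0.59) or without contralateral replicate 2 (0.59) or 4 (0.60), and that in MRL/MpJ (0.57 ± 0.18) without injured replicate 2 (0.66). At 2-weeks it went from 0.50 to 0.63 in STR/ort, past the fold threshold, when contralateral replicate 4 was left out.

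**Figure D4:**
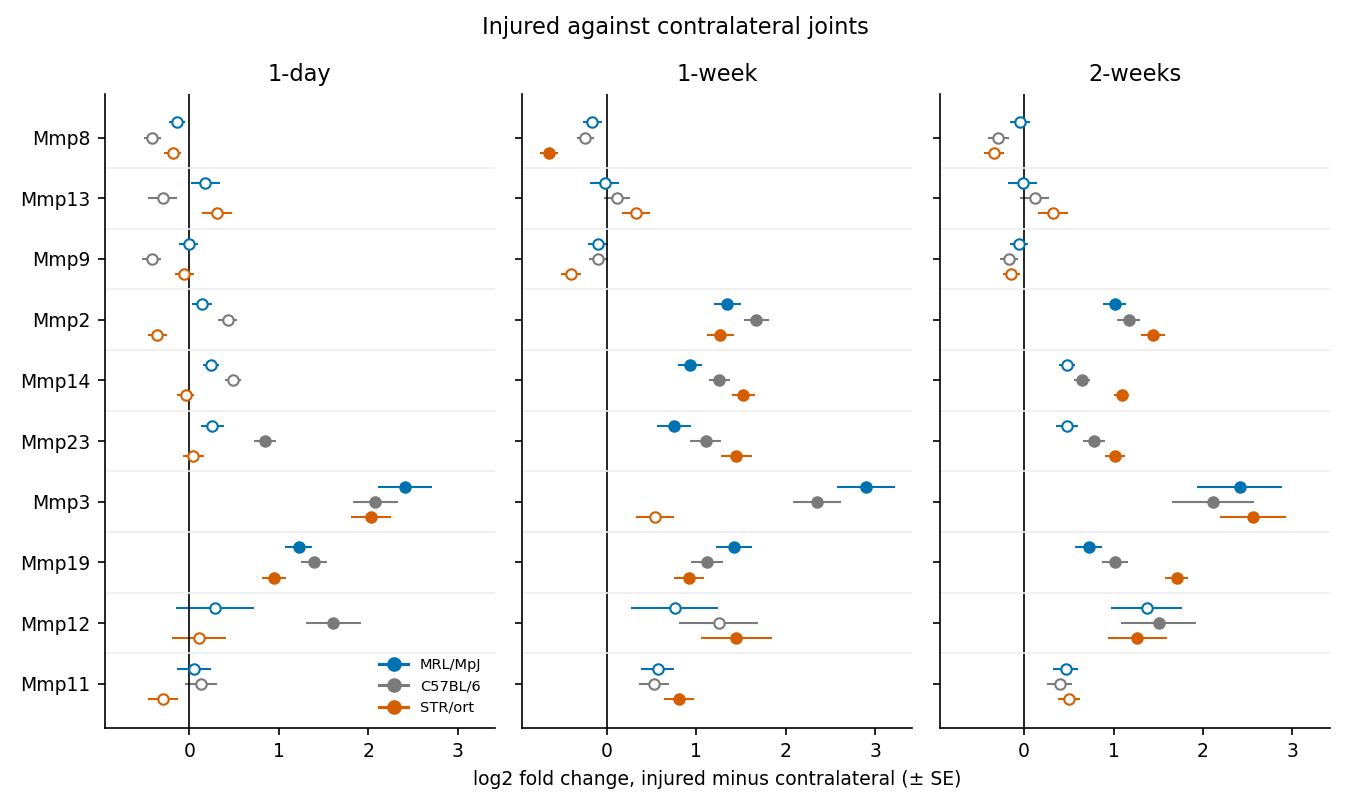
Log2 change between injured and contralateral joints for the 10 genes, by time and strain, with bars of ± 1 SE, filled points for called changes and open points for changes that were not called. Mmp19 is filled in all 9 comparisons, and Mmp9 and Mmp13 in none.

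The make-up of the family changed with these levels. Mmp8, Mmp9 and Mmp13 together held 42.8% ± 4.89 of the summed level per kb in injured STR/ort joints at 1-week (SD, n = 5), against 65.8% ± 8.90 in contralateral ones (n = 4). The same share at 1-week was also lower in injured joints of the other strains. It was 69.6% ± 3.56 in injured and 85.3% ± 1.72 in contralateral MRL/MpJ joints, and 61.5% ± 4.22 and 82.9% ± 1.27 in C57BL/6. Mmp2 held 32.1% ± 3.10 and Mmp14 16.6% ± 1.91 of the level in injured STR/ort joints at 1-week. The summed level of the 10 genes was 1225 ± 98.6 CPM per kb there, against 858 ± 53.1 in contralateral STR/ort joints and 610 ± 51.8 at 0-day.

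The strains were then compared within injured joints. At 1-day 6, 3 and 5 of the 10 genes were called between STR/ort and MRL/MpJ, STR/ort and C57BL/6, and C57BL/6 and MRL/MpJ, against 20.3%, 12.4% and 16.3% of all genes. At 1-week 8, 9 and 2 were called, against 29.5%, 25.1% and 9.47%, and at 2-weeks 8, 6 and 2, against 18.9%, 10.4% and 11.5%. Of these 49 calls, 45 were higher in the first-named strain. The median log2 difference of the 10 genes was 0.82, -0.07 and 0.67 at 1-day, 1.47, 1.05 and 0.22 at 1-week and 0.80, 0.60 and 0.17 at 2-weeks, with medians over all genes between -0.01 and 0.02.

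At 1-week injured STR/ort joints were higher than those of both other strains for Mmp2, Mmp3, Mmp11, Mmp12, Mmp13, Mmp14, Mmp19 and Mmp23. The largest differences from MRL/MpJ were those of Mmp3 (2.22 ± 0.22), Mmp19 (1.88 ± 0.16), Mmp14 (1.82 ± 0.12) and Mmp2 (1.8 ± 0.14). From C57BL/6, Mmp3 differed by 2.16 ± 0.21 and Mmp19 by 1.89 ± 0.16, while Mmp8 was lower (-0.72 ± 0.10). The marrow neutrophil marker sum was 9063 to 12817 CPM in these STR/ort joints and 13691 to 15376 CPM in those of C57BL/6, without overlap. It was 14979 to 19799 CPM in those of MRL/MpJ, also without overlap, and Mmp8 was not called against that strain. The part of this sum in the Mmp8 levels was not tested. Mmp13, which was not called between injured and contralateral joints, was higher in STR/ort by 1.13 ± 0.15 and 0.94 ± 0.15. With 2 RUVg factors both calls were lost, at 0.11 (adjusted p = 0.864) and 0.28 (adjusted p = 0.452), as was that of Mmp11 against MRL/MpJ (0.88, adjusted p = 0.188). Injured STR/ort joints at 1-week had fibroblast marker sums of 12061 to 15890 CPM, against 4537 to 5299 CPM in MRL/MpJ and 4593 to 5333 CPM in C57BL/6, and muscle marker sums of 11969.6 to 26193 CPM against 36387 to 60982 and 22870 to 45796 CPM. The sum of 6 osteoblast markers was 2292 to 3128 CPM in STR/ort, against 1103 to 1577 CPM in MRL/MpJ and 1153 to 1594 CPM in C57BL/6. The chondrocyte marker sum was 3438 to 6797 CPM, above that of MRL/MpJ (1254 to 2984 CPM) and overlapping that of C57BL/6 (1737 to 3994 CPM). The part of these differences in the MMP levels was not tested.

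Between injured C57BL/6 and MRL/MpJ joints at 1-week, Mmp2 (0.76 ± 0.14) and Mmp14 (0.71 ± 0.12) were called. At 2-weeks Mmp2 (0.78) and Mmp23 (0.63) were called, and the call of Mmp23 was lost without MRL/MpJ injured replicate 3 (0.58) or C57BL/6 injured replicate 4 (0.57). Several further calls at 2-weeks lay close to a threshold. Between STR/ort and C57BL/6, Mmp2 (0.60), Mmp14 (0.60) and Mmp11 (0.61) were lost with 6, 4 and 4 of 10 libraries left out in turn, and between STR/ort and MRL/MpJ, Mmp9 (-0.59) with 6 and Mmp12 (0.82) with 3, among them MRL/MpJ injured replicate 3 (0.74). Mmp9 was also lower in STR/ort than in C57BL/6 at 2-weeks (-0.70). That call was kept with each library left out and lost with 2 RUVg factors (-0.55). At 1-day Mmp13 was called between STR/ort and MRL/MpJ (0.91) and between STR/ort and C57BL/6 (0.59), and both calls were lost with 1 RUVg factor (0.25 and 0.20) or 2 (0.26 and 0.21). The second was also lost with 6 of 10 libraries left out, and that of Mmp12 (-0.85, higher in C57BL/6) with 3. The osteoblast marker sum in injured joints at 1-day was 2727 to 3536.5 CPM in STR/ort, against 1515 to 1941 CPM in MRL/MpJ and 1461 to 2455 CPM in C57BL/6. The fibroblast marker sums of injured STR/ort joints, given above, lay over those of both other strains without overlap at 1-day and at 2-weeks. The part of these sums in the differences was not tested.

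Contralateral joints were compared in the same way. At 1-day 6, 3 and 4 genes were called, against 22.6%, 10.5% and 14.8% of all genes. At 1-week 7, 7 and 0 were called, against 24.4%, 22.2% and 8.53%, and at 2-weeks 4, 3 and 1, against 13.8%, 9.78% and 9.83%. Where edgeR called 0 members, between C57BL/6 and MRL/MpJ at 1-week, 3 had an unadjusted p under 0.05 and DESeq2 called 0. The median log2 difference of the 10 genes was 0.93, 0.43 and 0.53 at 1-day, 0.79, 0.78 and 0.19 at 1-week and 0.58, 0.24 and 0.26 at 2-weeks, with medians over all genes between -0.01 and 0.03.

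At 1-day the fibroblast marker sum of contralateral STR/ort joints (9423 to 13452 CPM) lay above those of MRL/MpJ (2554 to 3415 CPM) and C57BL/6 (3602 to 4528 CPM). Their muscle marker sum (26704 to 46205 CPM) lay below that of MRL/MpJ (52458 to 68436 CPM). The osteoblast sum was 2245 to 3601 CPM in STR/ort, 2374 to 2851 CPM in C57BL/6 and 1368.5 to 1804 CPM in MRL/MpJ. The chondrocyte sum was 3131 to 6761, 3211 to 4362 and 1093 to 2426 CPM. Both were lowest in MRL/MpJ without overlap. Mmp13 was called higher than in MRL/MpJ in STR/ort (0.78) and C57BL/6 (0.80), and both calls were lost with 1 or 2 RUVg factors. The part of these sums in the differences was not tested. Mmp3 showed the largest of these differences at 1-week, 4.58 ± 0.31 between STR/ort and MRL/MpJ and 3.97 ± 0.27 between STR/ort and C57BL/6. Without the third STR/ort library the second was 4.24. Mmp19 differed by 2.38 and 2.09, and Mmp2 by 1.88 and 1.45. Fibroblast marker sums were 8984 to 23369.8 CPM in these STR/ort joints, against 2322 to 2574 CPM in MRL/MpJ and 2039 to 2653 CPM in C57BL/6, and their part in the differences was not tested. Mmp13 was called at 1-week (0.77 and 0.73), and with 2 RUVg factors these values were -0.22 and 0.14. Mmp23 (0.81 against MRL/MpJ and 0.71 against C57BL/6) and Mmp11 (0.61 and 0.67) were called there too. With 1 or 2 RUVg factors these 3 genes lost their calls against both strains. Mmp23 then stood at 0.66 and 0.85 against MRL/MpJ and at 0.58 and 0.65 against C57BL/6. Mmp11 stood at 0.64 with each against MRL/MpJ and at 0.70 with each against C57BL/6. These calls were lost on the adjusted p, and that of Mmp23 against C57BL/6 with 1 factor also on the fold. With housekeeping scaling all 3 genes lost their calls against C57BL/6 (0.58 for Mmp13, 0.57 for Mmp23 and 0.53 for Mmp11), and Mmp11 also against MRL/MpJ (0.47). In the same joints the osteoblast marker sum was 2792 to 4049 CPM in STR/ort, against 1354 to 1770.4 CPM in MRL/MpJ and 1347 to 1926 CPM in C57BL/6. The chondrocyte marker sum was 4764 to 6182 CPM, against at most 2665 and 3186 CPM, and the part of these sums was not tested. At 2-weeks the fibroblast marker sums, given above, lay higher in contralateral STR/ort joints than in those of both other strains without overlap. The osteoblast sum (984 to 1353 CPM) and chondrocyte sum (2415 to 3684 CPM) of STR/ort lay above those of MRL/MpJ (727 to 853 and 1351 to 2032 CPM). Both overlapped C57BL/6, and the part of these sums was not tested. The Mmp3 differences at 2-weeks rested on 1 library: 1.83 ± 0.50 and 1.41 ± 0.48 with all libraries became 0.96 (edgeR adjusted p = 0.103) and 0.53 (adjusted p = 0.397) once STR/ort contralateral replicate 4 was left out. The second was also lost without C57BL/6 contralateral replicate 1, 2, 3 or 5, at adjusted p from 0.0509 to 0.0559. The STR/ort against MRL/MpJ difference of Mmp11 (0.65) fell under the fold threshold without STR/ort replicate 4 at 2-weeks (0.52), and that of Mmp12 was called without it (1.12, adjusted p = 0.0497) but not with it (0.93, adjusted p = 0.098). Mmp9 was lower in contralateral STR/ort joints than in those of C57BL/6 at 1-day (-0.63) and at 2-weeks (-0.72). The first call was lost with 2 of 10 libraries left out in turn, and the second with 2 RUVg factors (-0.48).

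A direct test asked whether the change with injury differed between strains. At 1-day 0, 3 and 0 genes were called for STR/ort against MRL/MpJ, STR/ort against C57BL/6 and C57BL/6 against MRL/MpJ, where 0.162%, 2.66% and 0.318% of all genes were called. At 1-week 1, 1 and 0 were called, against 0.884%, 0.491% and 0%, and at 2-weeks 2, 0 and 0, against 0.451%, 0.0462% and 0%. For the comparisons in which edgeR called 0 members, DESeq2 also called 0. The members with an unadjusted p under 0.05 numbered 2 and 5 in these comparisons at 1-day, 0 at 1-week, and 2 and 0 at 2-weeks. Over all genes, C57BL/6 against MRL/MpJ had 505 genes with an unadjusted p under 0.05 at 1-week and 984 at 2-weeks, and DESeq2 called 0 and 2. The median log2 difference in change over the 10 genes was -0.24, -0.43 and 0.12 at 1-day, 0.08, -0.01 and 0.07 at 1-week and 0.24, 0.22 and 0.13 at 2-weeks.

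At 1-day the changes of Mmp2 and Mmp23 were smaller in STR/ort than in C57BL/6, by -0.79 ± 0.15 (edgeR adjusted p = 0.00135) and -0.80 ± 0.17 (adjusted p = 0.00429). Mmp14 differed in the same direction by -0.53 ± 0.13, under the fold threshold. The difference of Mmp12 (-1.5 ± 0.43, adjusted p = 0.0424) was lost with 12 of the 20 libraries of both strains left out in turn, with adjusted p up to 0.119 without STR/ort contralateral replicate 1. At 1-week the change of Mmp3 was smaller in STR/ort than in MRL/MpJ by -2.35 ± 0.39 (adjusted p = 0.00133) and than in C57BL/6 by -1.81 ± 0.35 (adjusted p = 0.00835). Without the third contralateral STR/ort library these were -2.63 and -2.08. At 2-weeks the changes of Mmp19 (0.98 ± 0.20) and Mmp14 (0.61 ± 0.12) were larger in STR/ort than in MRL/MpJ. The Mmp19 call was lost without MRL/MpJ contralateral replicate 1 (0.93, adjusted p = 0.0594). The Mmp14 call was lost with 6 libraries left out in turn, among them MRL/MpJ injured replicates 3 (0.53) and 4 (0.54). With RLE size factors (0.58), DESeq2 (0.58) or filterByExpr (0.55) it was lost on the fold alone.

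Time points of batch 1 were compared within strains. Contralateral joints at 1-day and 1-week were set against the joints of other mice at 0-day, and injured joints at 1-week against injured joints at 1-day. In MRL/MpJ 0, 0 and 2 genes were called, against 0.0924%, 0% and 3.11% of all genes. In C57BL/6 0, 5 and 3 were called, against 0.0693%, 5.72% and 4.47%, and in STR/ort 0, 4 and 6, against 9.92%, 13.6% and 13.9%. Where edgeR called 0 members DESeq2 also called 0, and the members with an unadjusted p under 0.05 were 1 and 0 in MRL/MpJ, 3 in C57BL/6 and 3 in STR/ort. For MRL/MpJ at 1-week against 0-day, 991 of all genes had an unadjusted p under 0.05 and DESeq2 called 0. The median log2 change of the 10 genes was 0.02, 0.02 and 0.30 in MRL/MpJ, -0.26, -0.63 and -0.05 in C57BL/6 and 0.27, 0.42 and 0.94 in STR/ort, with medians over all genes between -0.03 and 0.05.

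In contralateral joints the genes called between 0-day and 1-week were lower at 1-week in C57BL/6 and higher in STR/ort. In C57BL/6 the levels of Mmp3 (-1.46 ± 0.34), Mmp2 (-0.97 ± 0.13), Mmp23 (-0.71), Mmp13 (-0.64) and Mmp14 (-0.62) were lower at 1-week. In STR/ort Mmp3 (2.03 ± 0.28), Mmp19 (1.24 ± 0.18), Mmp2 (0.91 ± 0.14) and Mmp23 (0.66) were higher, and in MRL/MpJ the change of Mmp3 was 0.06 ± 0.53. The difference between strains in this change was not tested. The median fibroblast marker sum went from 4346 CPM at 0-day to 2262 CPM at 1-week in C57BL/6 and from 7060 to 13724 CPM in STR/ort, without overlap in either strain. The median muscle marker sum went from 37434 to 56281.5 CPM in C57BL/6, with overlap, and from 66156 to 26583.5 CPM in STR/ort, without overlap. The osteoblast marker sum in C57BL/6 was 2279.8 to 3194 CPM at 0-day and 1347 to 1926 CPM at 1-week, without overlap. In STR/ort it was 1986 to 2760 CPM and then 2792 to 4049 CPM, also without overlap. The STR/ort macrophage sum (311 to 382 CPM, then 449 to 697 CPM) and osteoclast sum (551 to 764 CPM, then 925 to 1059 CPM) were higher at 1-week without overlap. In C57BL/6 both overlapped. The part of these sums in the changes was not tested. The Mmp13 call was lost with 1 (-0.55) or 2 (-0.56) RUVg factors. Mmp13 and Mmp14 in C57BL/6 each lost their call with 2 libraries left out in turn, at the lowest log2 changes of -0.53 and -0.52 in size, and Mmp23 in STR/ort without contralateral replicate 1 (0.49).

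Between 1-day and 1-week injured joints gained Mmp2 and Mmp14 in all 3 strains. The log2 change of Mmp2 was 1.17 ± 0.12 in MRL/MpJ, 0.72 ± 0.12 in C57BL/6 and 2.14 ± 0.13 in STR/ort, and that of Mmp14 was 0.76, 0.60 and 1.77. STR/ort also gained Mmp23 (1.52), Mmp12 (1.14), Mmp11 (0.99) and Mmp19 (0.88), while the change of Mmp3 was 0.12 ± 0.22 (edgeR adjusted p = 0.728). In C57BL/6 Mmp12 was lower at 1-week (-0.87, adjusted p = 0.0497), a call lost in most of the fits that left out 1 library, and the Mmp14 call was lost without injured replicate 5 at 1-week (0.48) or replicates 2 (0.57) or 3 (0.55) at 1-day. The macrophage marker sum of injured C57BL/6 joints was 712 to 852 CPM at 1-day and 472 to 559 CPM at 1-week, and the neutrophil marker sum of injured STR/ort joints was 14047 to 16966 CPM and then 9063 to 12817 CPM, both without overlap. The fibroblast marker sums of injured joints at both times, given above, overlapped in every strain. The part of these sums in the changes was not tested.

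**Figure D5:**
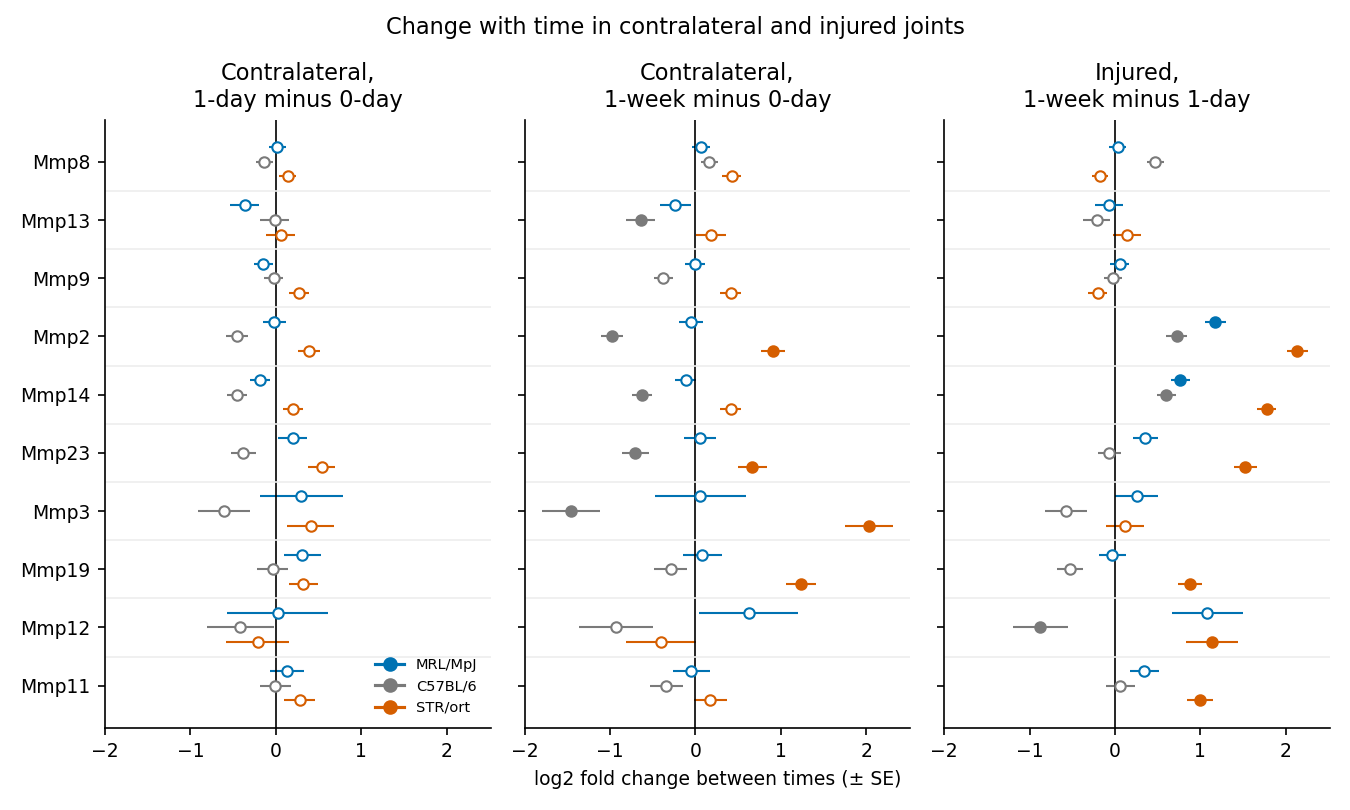
Log2 change between time points of batch 1 for the 10 genes, by strain, with bars of ± 1 SE, filled points for called changes and open points for changes that were not called. Mmp3 lies at -1.46 in C57BL/6 and at 2.03 in STR/ort for contralateral joints at 1-week against 0-day.

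Over the 21 groups, injured STR/ort joints at 1-week had the highest mean for 7 of the 10 genes. Mmp3 spanned the widest range of group means, from 2.61 ± 0.423 CPM in MRL/MpJ at 0-day to 93.6 ± 18.1 CPM, a ratio of 35.9. The ratio was 11.4 for Mmp2, 10.4 for Mmp19, 9.36 for Mmp14, 8.82 for Mmp12 and 5.80 for Mmp23, and lay between 2.31 and 3.20 for Mmp13, Mmp8, Mmp9 and Mmp11. Of the 20 pairs of neighbours in the order of levels, the ranges of libraries did not overlap in 3 pairs for Mmp14, 2 for Mmp2, 1 each for Mmp3 and Mmp23 and 0 for the other 6 genes. For Mmp2, Mmp14 and Mmp23 injured STR/ort joints at 1-week lay above the next group without overlap.

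The other genes of the pathway were taken from lists. Over all genes, 1.14% to 5.67% were called higher and 0.0173% to 3.54% lower in the 9 injury comparisons. Among the inhibitors (Timp1, Timp2, Timp3, Timp4 and Reck), 14 of 45 tests were called higher and 5 lower in injured joints. Timp1, an inhibitor of most secreted MMPs, was called in all 9 injury comparisons, with log2 changes of 2.22, 2.33 and 2.35 at 1-day, 1.28, 1.49 and 1.46 at 1-week and 0.81, 1.14 and 1.98 at 2-weeks. It was also called in all 9 comparisons of strains within injured joints, and its change was larger in STR/ort than in MRL/MpJ at 2-weeks by 1.17. Timp4 went the other way at 1-day, with -1.09, -0.92 and -1.97, and its change was lower in STR/ort than in C57BL/6 by -1.04.

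Of the activators, 17 of 54 tests were called higher and 1 lower with injury, with 6 of the 7 listed genes measured. Plat (tissue plasminogen activator) was called in 7 comparisons and Htra1 (a secreted serine protease that degrades matrix) in 7, of which the one in STR/ort at 1-day was lower (-0.67). Among 7 AP-1 subunits, 5 of 63 tests were called higher with injury and 0 lower, a share not far above that of all genes, 3 of them for Fosl1 and 2 for Junb at 1-day (1.26 in MRL/MpJ and 1.16 in C57BL/6). Between strains at 0-day 14 of 21 AP-1 tests were called, all higher in the first-named strain, where 8.34%, 7.82% and 9.64% of all genes were called higher, with Fosb called in all 3 (5.83, 4.28 and 1.55) and Fos at 4.46 and 3.80 in STR/ort against the others. In STR/ort contralateral joints the log2 change of Fos from 0-day was -1.93 at 1-day and -3.72 at 1-week. Of the 5 cytokine genes that can induce MMPs, 8 of 45 tests were called higher with injury and 1 lower. Il1b was called higher in 2 comparisons and Tnf in 1, Osm was called lower in 1, and the log2 change of Il1a lay between -0.45 and 0.07, without a call. Il6 was called in 5, with 2.36, 2.46 and 3.34 at 1-day, from levels with means of 0.265, 0.290 and 0.626 CPM in the contralateral joints.

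Among 10 collagen, proteoglycan and other matrix genes that MMPs cut, 49 of 90 tests were called higher with injury and 0 lower. Vcan (versican) was called in all 9 comparisons. Fn1 (fibronectin) was the gene of this list with most calls for a difference in change between strains, lower in STR/ort than in C57BL/6 by -0.80 at 1-day and -1.59 at 1-week and than in MRL/MpJ by -1.45 at 1-week. Of the 13 other MMP genes listed 6 were measured, and 0 of 54 injury tests were called higher and 1 lower, Mmp15 in STR/ort at 1-day (-0.73). Mmp27 was lower in 7 of the 9 comparisons of strains within injured joints.

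The genes with the most similar pattern over the 21 group means were sought among 13989 genes, as a description without a test, since all groups share libraries, depth and strain. Mmp3 was closest to Mmp19 (Pearson r = 0.960), Nfasc (0.958) and Akr1b8 (0.957). Mmp2 was closest to Antxr1 (0.990), Matn2 (0.987) and Col6a1 (0.982), and Mmp14 to Pkd2 (0.983), Thbs2 (0.976) and Lamb1 (0.971). Mmp23 was closest to Cthrc1 (0.973), Mmp19 to Itga5 (0.966), Mmp11 to Pkn3 (0.963), Mmp9 to Zfp956 (0.951), Mmp8 to Nt5c3 (0.941), Mmp12 to Zfp9 (0.931) and Mmp13 to Spp1 (0.922). Between members, r was 0.949 for Mmp2 and Mmp14, 0.932 for Mmp14 and Mmp23 and 0.923 for Mmp2 and Mmp23.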

How the data were processed

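RNA of whole knee joints was sequenced from poly(A)-selected libraries. The authors deposited raw read counts per RefSeq gene, and the submitters' processing notes name TopHat2 2.0.11, featureCounts and the mouse build mm10. Whether counting used strand is not given in the sources used here. The table held 17313 rows, and 3 repeated rows were dropped, leaving 17310 genes. Every gene had 2 or more counts in 5 or more libraries. Total counts ranged from 6182016 to 20986027 per library with a median of 10582591.5.

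The members and lists were chosen with earlier results of these data known. All members are named, and of the other lists the genes called in most comparisons. The study's own model used RUVSeq, whose number of factors is not given in the sources used here. Here edgeR 4.0.16 (R 4.3.3) with TMM size factors and its quasi-likelihood test was fitted to 0-day and to each later time point, and to batch 1 for comparisons over time. P-values were adjusted by Benjamini-Hochberg over 17310 genes, and a call needs an adjusted p under 0.05 and a fold over 1.5. Levels are CPM with TMM factors of all 100 libraries, and per-kb levels divide by the merged length of all exons of a gene in GENCODE M21. Alternatives were RLE size factors, scaling on 25 housekeeping genes, RUVg with 1 or 2 factors, DESeq2 1.42.0, filterByExpr, a replicate block and each library left out in turn.

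Tested on simulated data made like the MRL/MpJ injury comparison at 1-day, the edgeR fit called 90% of genes changed 2-fold and 98% of genes changed 4-fold. The changed genes were drawn from those over a minimum mean count, and the counts were simulated from the kind of model that edgeR fits. These shares may thus not hold for genes with few counts. Among 190 pairs of libraries within groups, 0 were identical. The labels name the same animal for injured and contralateral joints of a number at 2-weeks. Correlations of paired deviations there were 0.183 to 0.271 in C57BL/6, 0.213 to 0.449 in STR/ort and -0.279 to 0.0824 in MRL/MpJ. Apart from this, p-values measure the spread between the libraries of a group. The labels give no sex.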

Additional observations from a re-analysis of the deposited data

Results flagged for a closer look

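In 15 of 210 sets of libraries (1 gene in 1 group), 1 library lay far from the rest by Dixon's criterion, which chance alone meets in about 1 of 20 sets. Injured MRL/MpJ joints at 2-weeks accounted for 5 of them. Their replicate 3 was low in Mmp2 (132 CPM, the others 223 to 254), Mmp3 (4.47 CPM, the others 15.8 to 22.1) and Mmp19 (10.2 CPM, the others 14 to 15.1). Their replicate 4 was low in Mmp8 (227 CPM, the others 321 to 368) and Mmp9 (501 CPM, the others 768 to 866). The remaining low values were Mmp3 in contralateral MRL/MpJ replicate 3 at 1-day (1.06 CPM), Mmp8 in injured C57BL/6 replicate 3 at 2-weeks (283 CPM), and Mmp11 in injured C57BL/6 replicate 2 at 1-day (2.10 CPM) and injured MRL/MpJ replicate 2 at 1-week (2.48 CPM). The high values were Mmp13 in injured C57BL/6 replicate 3 (491 CPM) and Mmp14 in replicate 5 (524 CPM) at 1-week, Mmp14 in contralateral MRL/MpJ replicate 4 (156 CPM) and Mmp23 in injured MRL/MpJ replicate 3 (17.5 CPM) at 1-week, Mmp19 in injured STR/ort replicate 1 at 1-day (41.5 CPM) and Mmp19 in contralateral STR/ort replicate 4 at 2-weeks (19.7 CPM, the others 13.7 to 13.8).

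The change with injury differed between strains in 7 tests. In log2 units the difference was -0.79 for Mmp2, -0.80 for Mmp23 and -1.5 for Mmp12 between STR/ort and C57BL/6 at 1-day. It was -2.35 for Mmp3 between STR/ort and MRL/MpJ and -1.81 between STR/ort and C57BL/6 at 1-week. It was 0.61 for Mmp14 and 0.98 for Mmp19 between STR/ort and MRL/MpJ at 2-weeks.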

How the results depend on the processing

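The totals of members called in each of the 6 kinds of comparison stayed within 1.5 times of their value under every alternative run, with 1 exception: 15 calls between strains at 0-day became 7 with 2 RUVg factors. Within single comparisons, 6 calls between C57BL/6 and MRL/MpJ at 0-day became 0 with 2 RUVg factors, 3 between contralateral STR/ort and C57BL/6 joints at 2-weeks became 1 and 3 between injured C57BL/6 joints at 1-day and 1-week became 5. With housekeeping scaling 7 calls between contralateral STR/ort and C57BL/6 joints at 1-week became 4. For the difference in change between STR/ort and MRL/MpJ, 1 call at 1-week became 2 with DESeq2 and 3 with the replicate block, and 2 at 2-weeks became 1 with RLE, DESeq2 or filterByExpr. The causes were not tested. The difference of Mmp13 between contralateral STR/ort and MRL/MpJ joints at 1-week, 0.77, became -0.22 with 2 RUVg factors, and every call of Mmp13 between strains was lost with them. When 1 library at a time was omitted, counts were 39 to 41 for injury, 14 to 16 at 0-day, 45 to 50 between strains in injured joints, 32 to 37 in contralateral joints, 5 to 7 for the difference in change and 17 to 21 over time. Of the calls and named values, 28 fell short of a threshold with 2 RUVg factors beside the Mmp13 value that changed sign, 13 with 1, 7 with housekeeping scaling, 3 with RLE and 2 each with DESeq2 and filterByExpr. Housekeeping scaling moved the median of all genes by over 0.1 on the log2 scale in 8 of 48 comparisons, by -0.18 to 0.15. Counts over all genes moved by over 1.5 times in 13 of the 48 comparisons with 2 RUVg factors (6 higher, 7 lower), 8 with 1 (3 higher, 5 lower), 4 with DESeq2 (all higher), 1 each with RLE, housekeeping scaling and filterByExpr (lower), and in 3 of 18 with the replicate block (all higher). With the replicate block 42 calls for injury and 8 for the difference in change were made, against 40 and 7. Of the calls above, that of Mmp12 for STR/ort against C57BL/6 at 1-day was lost (-1.46, edgeR adjusted p = 0.0614), and Mmp12 in C57BL/6 at 1-week was gained (1.24, adjusted p = 0.0172), as with other alternatives given above. Gained differences in change were those of Mmp14 (0.60, adjusted p = 0.0372) and Mmp23 (0.74, adjusted p = 0.0444) between STR/ort and MRL/MpJ at 1-week; in the 1-day and 1-week groups other than STR/ort at 1-week at least 1 pair correlated under 0.1, so there the numbers are not taken as pairs. Genes below a few CPM, such as Mmp12, are limited by depth.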
